A study of Mus musculus with 10 samples.

Results

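The comparison is between mouse embryonic stem cell cultures that received DCI and cultures that did not, at day 24 of differentiation. It uses 4 of the 10 arrays of the series: a DCI array and an array with KGF and DCI, against a control array and a KGF array. All 4 RNA samples came from C57BL/6 cells, with 1 array per condition and no replicate arrays. Each DCI array was matched to the array with the same KGF status, which gave 2 pairs. KGF is keratinocyte growth factor (FGF7), a mesenchymal mitogen for epithelium. The labels do not spell out DCI, and it is read here as the dexamethasone plus raised cAMP of the series title. That title sets the question as differentiation into alveolar epithelial type II cells, the surfactant-making cells of the lung. The labels give no doses, no start of treatment, and no number of cultures per array.

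Dexamethasone is a synthetic glucocorticoid. It binds the glucocorticoid receptor, which moves to the nucleus, activates genes through DNA response elements and restrains many inflammatory genes. Cyclic AMP activates protein kinase A, which phosphorylates CREB, a factor that binds cAMP response elements. In the fetal lung, both signals are known to promote the maturation of the surfactant system, and in many tissues glucocorticoids act on macrophages, endothelium and liver genes.

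Values are log2 expression, 1 value per gene and array, for 18193 genes, and the median over all genes and arrays was 6.67. A difference is DCI minus no DCI, given as the mean of the 2 pairs with the standard error of a limma fit. That fit took its spread from the 8 arrays of days 17 and 24, and genes with an adjusted p under 0.05 over all genes are called higher or lower. The p-values measure only the spread around that model, which holds array noise and any departure from additive effects. An exact permutation test of 2 arrays against 2 that ignores the pairing cannot go below a two-sided p of 0.333. A version that keeps the 2 pairs has a higher floor. In RNA from a whole culture, fewer cells of a type and less RNA per cell cannot be told apart. The label calls the cells embryonic stem cells, but at day 24 the pluripotency gene Pou5f1 read 3.93 to 5.39 and Nanog 4.48 to 6.12, all below the median of all values. Gapdh read 13.43 to 13.49 on the 4 arrays, with a 3′ minus 5′ signal difference of -0.0066 to 0.042. Actb read 13.65 and 13.59 without DCI and 13.33 on both DCI arrays, and its 3′ minus 5′ difference was 0.494 and 0.512 against 0.593 and 0.537. The polyA spike-in controls, added to the RNA in fixed amounts, read higher on the DCI arrays. Their median difference was 0.46 in the pair without KGF and 0.26 in the pair with KGF, over 24 probe sets that were all above 0. The part of these controls in the results was not tested.

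DCI at day 24 went with a broad change in expression. Of 18193 genes 3523 passed (19.4%), 1454 of them higher (7.99%) and 2069 lower (11.4%). At an unadjusted p under 0.05 there were 5656. At least 2-fold changes were found for 279 genes that rose and 367 that fell, and at least 8-fold changes for 7 and 31. All 3523 went the same way in both pairs, as did 12743 of all 18193 genes. The call itself favours such genes, since the difference is the mean of the 2 pairs and their disagreement adds to the spread. In 3483 of them both DCI arrays lay beyond both arrays without DCI, as they did for 53.7% of all genes. The median difference over all genes was -0.0056. The 2 pairs share no array, and across all genes their differences had a Pearson r of 0.79, which is a description over genes that are not independent. At least 2-fold differences were found for 701 genes in the pair without KGF and for 745 in the pair with KGF. The count of 3523 was 2232 without the control array, 2090 without the KGF array and 2106 without the array with both treatments.

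**Figure D1:**
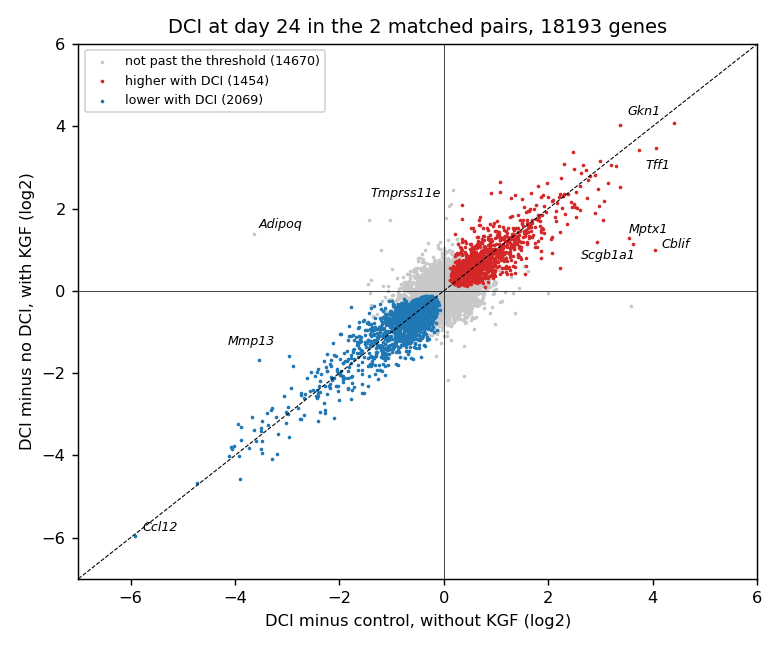
DCI difference of each of 18193 genes in the pair without KGF (x axis) and the pair with KGF (y axis), on the log2 scale. Red points are the 1454 genes that passed as higher and blue points the 2069 that passed as lower, and the dashed line marks equal differences. Ccl12 lies at the lower left near the line, while Cblif, Mptx1 and Scgb1a1 lie to the right of it.

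The largest rises were mostly in secreted products of stomach and intestine, and the largest falls in genes of macrophages. Gkn1 encodes gastrokine 1, a protein of the gastric surface epithelium. It read 8.07 in the control and 8.91 with KGF, against 12.48 on the DCI array and 12.99 with both, a rise of 4.24 ± 0.63 or 18.9-fold (adjusted p = 0.0012 in limma). Tff1, a gastric trefoil peptide, read 8.79 and 9.67 without DCI and 12.86 and 13.14 with it (3.77 ± 0.13). Zg16, a lectin of intestinal goblet cells, read 6.21 and 5.74 without DCI and 9.57 and 9.78 with it (3.70 ± 0.21). In each of these the DCI arrays lay far above both others. Ccl12, a monocyte-attracting chemokine, showed the largest change of all genes. It read 9.36 in the control and 9.07 with KGF, against 3.44 on the DCI array and 3.12 with both, and fell by 5.94 ± 0.19 on the log2 scale (61.2-fold, adjusted p = 1.05e-07 in limma). Values near 3 lie close to the bottom of the RMA scale, where differences are compressed. Among the 15 largest rises were also Gkn2, Gkn3, Spink4, Olfm4, Pgc, Muc2, Prap1, Clps, Tff3, Mrap, Fam3b and Mmp7, with differences between 2.71 and 3.59. The other 14 of the 15 largest falls lay between -4.69 (Aif1) and -3.59 (Evi2a). Of these 30 calls only that of Gkn2 was lost with an array left out, the one with both treatments (adjusted p = 0.0511 in limma). With a robust variance prior Gkn1 and Gkn2 did not pass (0.106 and 0.162 for that adjusted p).

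**Figure D2:**
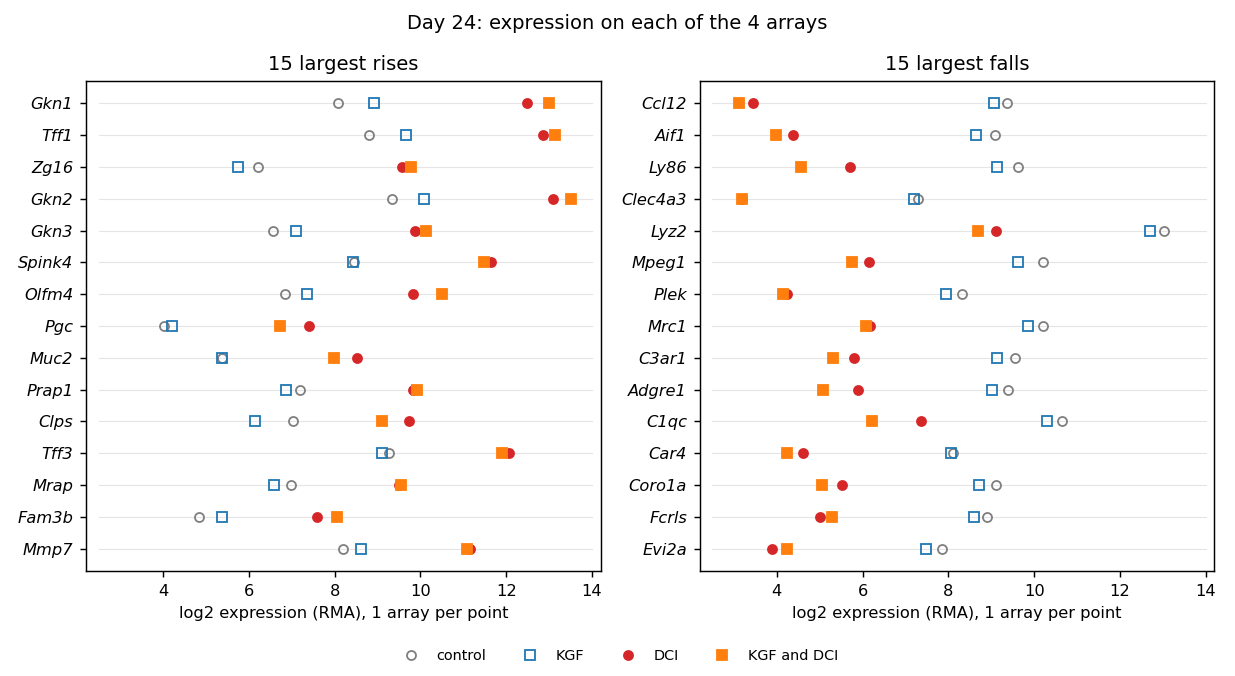
Log2 expression on each of the 4 day 24 arrays for the 15 genes with the largest rises (left) and the 15 with the largest falls (right), 1 array per point, open symbols without DCI and filled symbols with DCI. In every row the filled symbols lie to the same side of the open ones, from 8.07 and 8.91 against 12.48 and 12.99 for Gkn1 to 9.36 and 9.07 against 3.44 and 3.12 for Ccl12.

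Genes that glucocorticoids are known to induce were higher with DCI. Members of lists are named here beyond the 4 with the largest difference, and those were chosen after their values were seen. Each list count at day 24, here and below, is to be read beside the shares over all genes, 7.99% higher and 11.4% lower. With 1 array left out, the count of rises or of falls moved by over 1.5 times in 43 of the 46 lists. Of 27 measured members of a glucocorticoid response list 17 rose and 3 fell, with a median difference of 0.54. Fkbp5, a co-chaperone that limits the receptor's hormone binding, read 7.04 and 7.20 without DCI and 9.30 and 9.21 with it (2.14 ± 0.12, 4.39-fold). Zbtb16, a zinc finger repressor, read 5.74 and 5.53 without DCI and 7.25 and 7.26 with it (1.62 ± 0.17). Tsc22d3, the glucocorticoid-induced leucine zipper, read 8.07 and 8.17 against 9.67 and 9.59 (1.51 ± 0.11). These genes were therefore at nearly the same level on the array with DCI alone and on that with both treatments. Klf15, a metabolic zinc finger factor, rose by 1.23 and Hsd11b1, the enzyme that regenerates active glucocorticoid, by 1.26. Sgk1, a kinase that raises sodium transport, rose by 0.66, and the metallothionein genes Mt1 and Mt2 by 0.40 and 0.58. Members that fell were the receptor gene itself, Nr3c1, by 0.43, the phagocytic receptor Mertk by 0.50 and glutamine synthetase, Glul, by 0.25. Of these 3 falls 2 were left without the control array, 1 was left without the KGF array or without the array with both treatments, and 0 without the DCI array. Dusp1, a MAP kinase phosphatase, stayed between 11.43 and 11.49 on all 4 arrays. Other probe sets of the same genes gave as little as 0.13 for Fkbp5, 0.38 for Zbtb16 and 0.32 for Tsc22d3, and those of Nr3c1 and Glul gave up to 0.26 and 0.25, of opposite sign. Such probe sets are given for some genes only. Of the 85 called named genes with several probe sets, 45 had one with under 0.5 times the change or the opposite sign.

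Of 24 measured cAMP response genes 13 rose and 1 fell, with a median of 0.52. The rises were led by phosphodiesterases, the enzymes that break down cAMP. Pde4d read 6.74 and 6.52 without DCI and 8.37 and 8.47 with it (1.79 ± 0.11). Pde7b read 7.66 and 7.95 against 9.46 and 9.16 (1.51 ± 0.13), and Pde4b 7.36 and 7.50 against 8.74 and 9.03 (1.46 ± 0.12). Both DCI arrays were above both others for each enzyme gene, and Pde3b also rose, by 0.60. Some probe sets did not share the change, with 0.09 for Pde4d and -0.02 for Pde4b at the lowest. Rgs2, which shortens G protein signalling, rose by 1.56, the orphan nuclear receptor Nr4a2 by 1.23 and the kinase gene Sik1, a CREB feedback inhibitor, by 0.78. Nr4a1 rose by 0.45, a call lost without the control array or the array with both treatments (adjusted p up to 0.112 in limma). Bdnf, a neurotrophin, fell by 0.81. Fos was at 12.68, 12.71, 12.50 and 12.49 and Crem at -0.33 ± 0.15, and neither passed. In the circadian clock, where Per1 is a known target of both signals, Per1 read 7.17 and 7.32 without DCI and 8.46 and 8.40 with it (1.18 ± 0.09). Nfil3 and Bhlhe40 rose by 0.77 and 0.48. Of 17 clock genes 5 rose and 1 fell, and the 5 became 3 without the control array or the array with both treatments. The 1 fall, of Tef, was lost without any 1 of the 4 day 24 arrays or either day 17 DCI array (adjusted p up to 0.2 in limma).

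Promoter windows are shown to set these genes' sequences beside their values. They run from 250 bases before to 50 bases after the start site in RefSeq on GRCm38.p6, and 14452 of the measured genes had one by symbol. The letters searched, on both strands, were AGAACA, any 3 bases and TGTTCT for the glucocorticoid response element, TGACGTCA for the full cAMP response element and TGACG, part of the latter, for its core. Among named genes that rose, only Rab25 of the epithelial list met the rule planned for printing, and the other 4 windows were chosen after their values were seen. Capitals mark the match. Sgk1 holds the glucocorticoid element 189 bases before its start, in 1 of its 6 windows, at chr10:21993640-21993939 on the + strand. Errfi1 (chr4:150854820-150855119, +), Dusp1 (chr17:26508423-26508722, -) and Rab25 (chr3:88548230-88548529, -) hold the full cAMP element 51, 143 and 85 bases before the start. Nr4a1 (chr15:101266596-101266895, +) holds 4 copies of the core.
Sgk1: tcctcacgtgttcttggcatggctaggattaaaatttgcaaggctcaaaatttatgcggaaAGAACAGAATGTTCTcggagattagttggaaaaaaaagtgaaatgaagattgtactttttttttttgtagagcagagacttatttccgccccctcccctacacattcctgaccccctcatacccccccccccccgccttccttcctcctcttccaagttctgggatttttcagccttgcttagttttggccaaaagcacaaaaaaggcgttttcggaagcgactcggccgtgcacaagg
Errfi1: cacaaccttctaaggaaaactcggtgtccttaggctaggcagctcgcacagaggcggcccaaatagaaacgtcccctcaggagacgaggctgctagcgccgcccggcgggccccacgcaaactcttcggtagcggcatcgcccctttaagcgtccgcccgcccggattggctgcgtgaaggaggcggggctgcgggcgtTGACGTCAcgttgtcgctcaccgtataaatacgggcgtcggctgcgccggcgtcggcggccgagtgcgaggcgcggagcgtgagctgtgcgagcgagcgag
Dusp1: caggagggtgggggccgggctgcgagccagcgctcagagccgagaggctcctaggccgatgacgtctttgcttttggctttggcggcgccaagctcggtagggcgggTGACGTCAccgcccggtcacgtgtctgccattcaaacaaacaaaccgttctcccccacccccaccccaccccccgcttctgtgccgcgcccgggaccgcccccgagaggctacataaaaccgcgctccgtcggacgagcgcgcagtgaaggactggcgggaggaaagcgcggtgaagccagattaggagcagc
Nr4a1: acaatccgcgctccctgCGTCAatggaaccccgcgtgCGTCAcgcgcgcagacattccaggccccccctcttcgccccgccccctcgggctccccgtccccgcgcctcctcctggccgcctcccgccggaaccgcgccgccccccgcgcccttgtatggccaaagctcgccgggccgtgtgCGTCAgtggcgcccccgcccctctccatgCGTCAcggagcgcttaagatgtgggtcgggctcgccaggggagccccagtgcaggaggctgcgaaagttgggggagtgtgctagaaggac
Rab25: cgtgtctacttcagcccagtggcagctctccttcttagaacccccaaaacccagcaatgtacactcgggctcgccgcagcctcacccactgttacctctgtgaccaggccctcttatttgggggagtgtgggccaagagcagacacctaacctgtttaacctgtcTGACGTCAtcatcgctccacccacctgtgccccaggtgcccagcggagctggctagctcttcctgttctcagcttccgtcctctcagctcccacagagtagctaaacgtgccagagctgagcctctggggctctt

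Of these genes Errfi1, a feedback inhibitor of the EGF receptor, read 9.33 and 9.55 without DCI and 10.31 and 11.01 with it (1.22 ± 0.13), and Rab25, an epithelial trafficking GTPase, rose by 0.65 ± 0.10. Dusp1, with the same element, did not pass (-0.04 ± 0.07). The full cAMP element was found in 1.79% of all 32851 windows. Counted by gene, it was found in 2.92% of measured genes with a window. The share was 2.93% of genes that rose, 2.17% of those that fell and 3.02% of those that did not pass. The share among genes that rose was thus no larger than among genes that did not pass. The glucocorticoid element in this exact spelling was found in 3 of the 32851 windows (0.00913%). The core TGACG was found in 30.0% of measured genes and 30.6% of those that rose. It was found in 15 of the 18 cAMP response genes with a window (83.3%) and 11 of the 23 glucocorticoid response genes (47.8%). The cAMP list holds known response genes, so its high share is no test of these data. These matches are descriptions of letters and show no binding.

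Macrophage genes were lower with DCI almost without exception. Of 33 measured markers 31 fell and 1 rose, with a median of -2.50, and the 31 held when each of the 8 arrays was left out. The lysozyme gene Lyz2 read 13.03 and 12.69 without DCI and 9.10 and 8.68 with it (15.6-fold lower). Aif1, a calcium-binding protein of macrophages, read 9.09 and 8.64 against 4.37 and 3.98, and Mrc1, the mannose receptor, 10.20 and 9.86 against 6.18 and 6.09. The macrophage growth factor receptor gene Csf1r fell less, from 11.48 and 11.12 to 9.08 and 8.80 (-2.36 ± 0.08). So markers of 1 cell type fell by different amounts, and several stayed well above the median of all values: C1qa at 8.66 and 7.69, Tyrobp at 8.79 and 7.93 and Csf1r as above. The summed linear level of the 33 genes was 39660 and 31480 without DCI and 7601 and 6208 with it. Of the 33, 30 were at or above the median of all values on each array without DCI, against 13 and 12 with DCI. None is at 0, since RMA gives no zeros. Cd14 was the only member that did not pass, at 10.92 and 11.12 without DCI and 11.25 and 11.18 with it. Cd163, a scavenger receptor that glucocorticoids are known to induce, read 3.57 and 3.12 against 4.49 and 4.34 (1.06 ± 0.24), and its call was lost without the KGF array, the DCI array or the array with both treatments (adjusted p up to 0.102 in limma).

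Other blood markers were called about as often as all genes, of which 7.99% rose and 11.4% fell. Of 19 measured genes 2 rose and 2 fell, with a median of 0.10, and 1 rise was left without the control or the DCI array. The leukocyte antigen gene Ptprc read 8.45 and 8.09 without DCI and 4.78 and 5.04 with it, and Spi1, the myeloid master factor, fell by 1.35. Another Ptprc probe set gave -0.22. The neutrophil protein gene S100a8 rose from 3.76 and 3.90 to 5.89 and 5.69. None of 10 erythroid genes passed, and 9 of them or all 10 lay below the median of all values on each array, with and without DCI. The highest was Epor, at 6.81 and 6.74 without DCI and 6.74 and 6.01 with it.

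Chemokine genes moved both ways. Of 16 CC chemokine genes 6 fell, 2 rose and 8 did not pass. Besides Ccl12 the falls were in Ccl3, from 8.50 and 8.03 to 5.10 and 5.05 (-3.18 ± 0.20), Ccl4 by 1.51, Ccl6 by 1.13 and Ccl2 by 1.08. The exception was the eosinophil attractant Ccl11, at 6.64 and 6.28 without DCI and 8.55 and 8.60 with it (2.11 ± 0.15), with Ccl24, another such factor, higher by 0.81. Of 15 CXC and platelet chemokine genes 7 rose, 2 fell and 6 did not pass. The neutrophil attractants Cxcl3 and Cxcl2 rose by 2.69 and 1.08. Ppbp, of platelets, read 10.04 and 8.66 without DCI and 11.11 and 11.31 with it, so the rise was 1.08 without KGF and 2.65 with it, and a robust variance prior ended its call (adjusted p = 0.0967 in limma). The B cell attractant Cxcl13 rose by 1.59 and Cxcl12, which retains progenitor cells, by 0.61. Pf4 and Cxcl16 fell by 0.99 and 0.54, of which 1 was left without the KGF array and 0 without the array with both treatments.

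Inflammatory mediators moved both ways, with 6 of 18 higher and 5 lower. Il6 read 7.85 and 7.76 without DCI and 9.38 and 9.79 with it (1.78 ± 0.14), and Il11 and Il33 rose by 1.18 and 0.82. Tnf read 6.53 and 6.15 against 5.16 and 5.17 (-1.18 ± 0.16), and Il18 fell by 1.21. The 5 became 3 without the KGF array. Ptgs2, the inducible cyclooxygenase gene, did not pass at 9.10, 9.01, 8.69 and 9.04. In the complement list 4 of 8 genes fell, among them the receptor genes C3ar1 (-3.78 ± 0.11) and C5ar1 (-1.58 ± 0.13), and Cfb, of the alternative pathway, rose by 0.80. Of 15 antigen presentation genes 8 fell and 1 rose, the class II gene H2-Ab1 by 0.45, a rise lost without the control, the DCI or the combined array. The falls were led by the class II invariant chain Cd74, at 7.33 and 7.44 without DCI and 5.61 and 5.12 with it (-2.03 ± 0.18). The class II gene H2-Aa fell by 1.11 and the immunoproteasome gene Psmb8 by 1.06. Of 15 interferon response genes 1 rose, Bst2 by 1.18, and 3 fell, which was 1 without the KGF array. Macrophages express many of the genes in these lists, and the macrophage markers moved with them as given above. The part of those cells in these results was not tested.

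**Figure D3:**
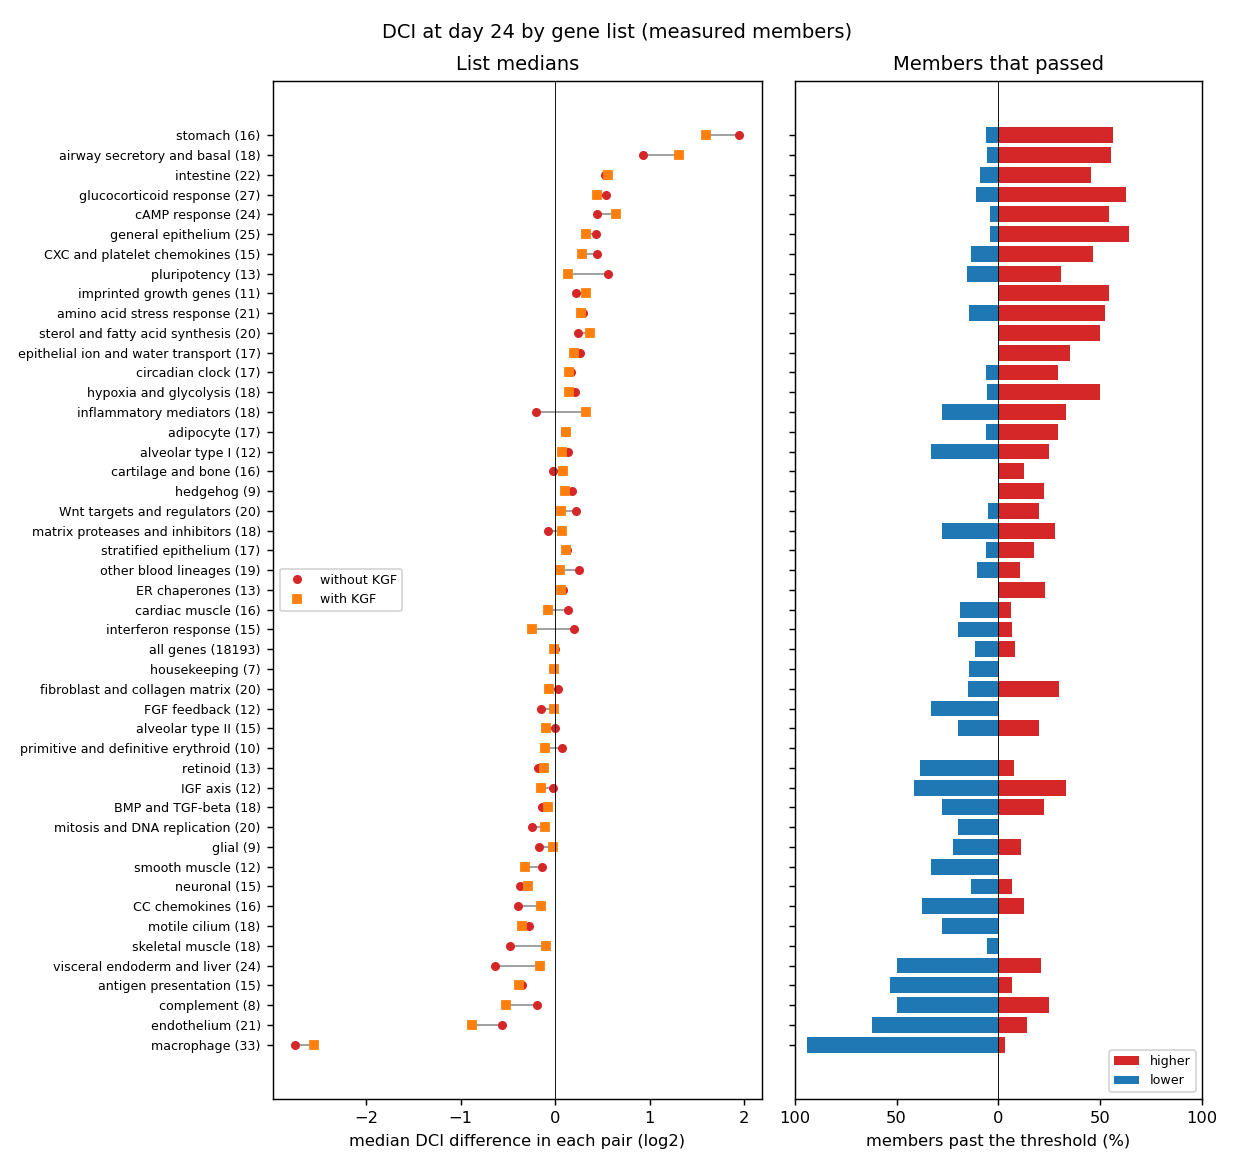
Median DCI difference of each gene list in the pair without KGF (red circles) and the pair with KGF (orange squares) on the log2 scale, and the share of measured members that passed as higher (red bars) or lower (blue bars), with list sizes in brackets. The macrophage list stands lowest at medians of -2.75 and -2.55, and the stomach list highest at 1.95 and 1.59, while all genes lie near 0.

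Endothelial genes were lower at day 24. Of 21 markers 13 fell and 3 rose, with a median of -0.73. Car4, a carbonic anhydrase of capillary endothelium that other cells also make, read 8.11 and 8.07 without DCI and 4.61 and 4.23 with it (12.7-fold lower). Cdh5, the endothelial cadherin, read 7.33 and 7.48 against 5.97 and 5.86 (-1.49 ± 0.16), and the adhesion molecule gene Pecam1 6.53 and 6.63 against 5.41 and 4.58 (-1.59 ± 0.22). Another Cdh5 probe set gave -0.05. The junction and receptor genes Cldn5, Esam, Emcn and Tie1 fell by 0.72 to 1.06. The VEGF receptor genes differed: Flt4 fell by 0.79, a call lost without the KGF or the combined array (adjusted p up to 0.0611 in limma), Flt1 rose by 0.46 and Kdr did not pass, at 6.37, 5.95, 6.07 and 6.38. Aplnr rose by 0.96 and Vwf, at 4.11 and 4.63 without DCI and 5.19 and 5.04 with it, by 0.75. The Vwf call was lost without the control or the DCI array and that of Flt1 without the control or the combined array (adjusted p up to 0.161 and 0.0758 in limma).

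Muscle and matrix genes changed less. Of 12 smooth muscle genes 4 fell, among them Tagln, a marker of contractile cells, by 0.55 ± 0.07, and only 2 fell without the control, the KGF or the combined array. Skeletal muscle transcripts were lower on the DCI array than on the other 3: Acta1 read 11.97, 12.03, 10.70 and 11.46, but did not pass. Of 18 genes in that list only Myh8 passed, and its call was lost without the control or the DCI array (adjusted p up to 0.314 in limma). Without the day 17 control or KGF array 6 of the 18 fell, and without the day 24 KGF array 2. Of 20 fibroblast and collagen genes 6 rose and 3 fell. The 6 became 2 without the control array and 1 without the KGF or the combined array. Ccn2, a matrix-associated target of TGF-beta and YAP, read 11.60 and 11.68 without DCI and 10.65 and 11.00 with it (-0.81 ± 0.09). Among proteases, the macrophage elastase Mmp12 read 5.55 and 5.60 against 3.48 and 3.28, and the collagenase Mmp13 fell by 2.61, while Mmp7, of secretory epithelium, read 8.20 and 8.61 against 11.15 and 11.08 and Mmp9 rose by 1.34.

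Stomach genes rose, but those of acid-secreting cells and of hormone cells did not pass. Of 16 measured genes 9 rose and 1 fell, with a median of 2.17. The rises were in the gastric epithelial genes Gkn1, Gkn2, Gkn3, Tff1, Tff2, Muc5ac and Anxa10, the pepsinogen gene Pgc and intrinsic factor, Cblif. Tff2 read 8.12 and 8.61 without DCI and 10.85 and 10.87 with it, and Muc5ac, the gastric and airway mucin, 5.94 and 5.74 against 7.75 and 8.29. Pgc was near the bottom of the scale without DCI at 4.03 and 4.21 and reached 7.40 and 6.72 with it. The proton pump genes Atp4a and Atp4b read 4.63 to 5.25 and 5.45 to 5.74 over the 4 arrays, and gastrin, Gast, 3.74 to 4.30. The foregut factor Sox2 fell by 0.41, with an adjusted p of 0.0495 in limma. That call was lost without the control, KGF or combined array of day 24 or the control or KGF array of day 17 (adjusted p up to 0.404). On the linear scale the summed level of the list was 2435 and 3710 without DCI and 26510 and 33530 with it.

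Intestinal genes of goblet cells rose beside them. Of 22 measured genes 10 rose and 2 fell, with a median of 0.59. Muc2, the main goblet cell mucin, read 5.37 and 5.36 without DCI and 8.52 and 7.97 with it (2.88 ± 0.19). The goblet cell peptides Spink4 and Tff3 reached 11.64 and 11.49, and 12.06 and 11.89, from 8.44 and 8.42, and 9.27 and 9.11. All of these were thus several times more abundant on both DCI arrays. Atoh1, the secretory lineage factor, rose from 4.85 and 3.87 to 6.21 on both DCI arrays, and the stem cell marker genes Olfm4 and Lgr5 rose by 3.08 and 0.87. Cdx2, the intestinal master factor, read 4.72 and 4.78 against 5.94 and 5.50 (0.97 ± 0.25), below the median of all values throughout, and its call was lost without the control, the DCI or the combined array (adjusted p up to 0.215 in limma). Another probe set gave 0.05 for Cdx2 and 0.00 for Lgr5. The 2 that fell encode fatty acid binding proteins of absorptive cells, Fabp1 by 1.30 and Fabp2 by 1.60. With the KGF array or the DCI array left out, 1 of them remained.

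Genes of the airway secretory list rose. Of 18 genes 10 rose and 1 fell, with a median of 1.32. The 10 include Muc5ac, also counted in the stomach list, and the mucous cell genes given below. The count alone therefore does not tell airway from gut cells. Muc5b, the airway mucin, read 6.59 in the control and 8.70 with KGF, against 9.19 on the DCI array and 10.65 with both. Scgb1a1, the club cell protein, read 5.95, 8.34, 8.88 and 9.52 in the same order. The KGF array therefore lay between the control and the DCI array for both. Bpifa1, an airway defence protein, read 5.70, 10.17, 7.56 and 10.98, so that the groups overlapped, with 1.34 ± 0.27 over the 2 pairs. The mucous cell genes Clca1, Agr2 and Spdef, the last a goblet cell transcription factor, rose by 2.63, 2.38 and 2.14. Another Clca1 probe set gave 0.38. Cyp2f2, a cytochrome P450 of club cells, fell by 1.13, at 9.81 and 11.15 without DCI and 9.18 and 9.53 with it. Bpifa1 did not pass without the DCI array, nor Cyp2f2 without the KGF array (adjusted p of 0.071 and 0.0607 in limma), nor Muc5b and Scgb1a1 with a robust variance prior (0.119 and 0.105). With that prior Scgb3a1, Bpifa1 and Cyp2f2 did not pass either (adjusted p of 0.0572, 0.145 and 0.15 in limma). The basal cell factor Trp63 did not pass (0.44 ± 0.18). Motile cilium genes did not rise: 0 of 18 passed as higher and 5 as lower, with a median of -0.25. Dynlrb2, a dynein light chain, read 6.70 in the control and 8.32 with KGF, against 5.36 and 6.70 with DCI. The 5 became 2 without the control or the KGF array and 1 without the combined array. Foxj1, the master factor of motile cilia, read 5.87, 7.14, 5.73 and 5.97 and did not pass.

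Genes of the alveolar cells named in the study's title moved both ways. Of 15 type II genes 3 rose and 3 fell, with a median of -0.06. The surfactant protein genes did not pass: Sftpc read 5.29, 6.89, 6.05 and 7.34 (0.61 ± 0.30, adjusted p = 0.2 in limma) and Sftpd 10.29, 11.19, 10.29 and 11.00 (-0.09 ± 0.16). For both genes the 2 arrays with KGF were the highest, with and without DCI. Sftpb and Sftpa1 were at 0.24 ± 0.22 and 0.47 ± 0.30, and the lipid transporter gene Abca3 at -0.15 ± 0.08. Napsa, the protease that processes surfactant proteins, rose from 6.42 and 6.51 to 7.55 and 7.64, with another probe set at 0.09, and Muc1, a membrane mucin, rose by 1.03. Etv5, an FGF-dependent factor of these cells, fell by 0.62. Nkx2-1, which specifies the lung, read 4.47 to 5.00 over the 4 arrays, below the median of all values. Of 12 type I genes 3 rose and 4 fell. The water channel gene Aqp5 read 7.60 and 8.26 without DCI and 9.92 and 10.12 with it (2.09 ± 0.19), and the claudin gene Cldn18, whose product also occurs in stomach, 5.36 and 5.96 against 7.82 and 7.99. Hopx, Pdpn and Ager did not pass, at 0.26, 0.06 and 0.24. Akap5 fell by 1.20 and the caveolin gene Cav1 by 0.30, and of the 4 falls 1 was left without the KGF array and 2 without the combined array. Other Akap5 probe sets gave -0.14 and 0.08.

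General epithelial genes were modestly higher. Of 25 members 16 rose and 1 fell, with a median of 0.39, and 10 rose without the control array or without the DCI array. Epcam, the epithelial adhesion molecule, read 10.91 and 11.11 without DCI and 11.57 and 11.90 with it (0.73 ± 0.06). Cdh1, E-cadherin, read 10.57, 10.90, 10.92 and 11.31 (0.38 ± 0.06), so its DCI array and its KGF array were alike. Elf3, an epithelial transcription factor, rose by 0.82, and the embryonic claudin gene Cldn6 fell by 0.76. Against a median of 2.17 for stomach genes the change in these shared epithelial genes was small. Of 17 ion and water transport genes 6 rose, among them the potassium channel subunit gene Kcne3 by 1.45 and the water channel gene Aqp3 by 0.71. The chloride channel gene Cftr, a known cAMP-gated channel, read 4.49 and 5.36 against 5.96 and 6.13, with another probe set at 0.01 and its call lost without the control, the DCI or the combined array (adjusted p up to 0.0743 in limma). The sodium channel gene Scnn1a did not pass (0.31 ± 0.14).

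Genes of visceral endoderm and liver moved both ways at day 24. Of 24 members 12 fell, 5 rose and 7 did not pass, with a median of -0.31. Apob, the lipoprotein scaffold, read 8.01 and 7.86 without DCI and 5.61 and 5.30 with it (-2.48 ± 0.11), with another probe set at -0.59. The endocytic receptors of the yolk sac and kidney, Cubn, Lrp2, Amn and their adaptor Dab2, fell by 1.37, 1.16, 1.05 and 1.26. Afp, the fetal plasma protein, fell from 12.64 and 12.57 to 11.57 and 11.88, with another probe set at 0.22. The 5 that rose encode plasma proteins, the fetuin gene Ahsg by 1.65, the fibrinogen chains Fga, Fgb and Fgg by 0.98, 1.08 and 1.22, and albumin, Alb, by 0.48. The Alb call was lost without the control, the KGF or the combined array (adjusted p up to 0.13 in limma). The hepatic factor Hnf4a did not pass (0.49 ± 0.15, adjusted p = 0.0515 in limma), nor did Ttr.

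The same contrast at day 17, on 4 other arrays, called 1754 genes (9.64%), 1025 of them higher (5.63%) and 729 lower (4.01%), and 1172 genes were called in the same direction on both days and 29 in opposite directions. The difference between the days was tested directly, and 456 genes passed (2.51%), 97 with a higher DCI difference at day 24 (0.533%) and 359 with a lower one (1.97%). Of these 359 genes 283 were called lower at day 24 and 97 were called higher at day 17. Of the 97 genes with a higher DCI difference at day 24, 88 were called higher at day 24. Among the lists, the endothelial one had a median of 0.082 at day 17, with 4 of 21 members higher and 0 lower, and 6 members with a lower difference at day 24. For Pecam1 the difference was 0.04 at day 17 and -1.59 at day 24, and for Cdh5 0.08 and -1.49. With 1 array left out the change between days was lost for Pecam1 in 6 of 8 fits and for Cdh5 without the day 17 combined array (adjusted p up to 0.154 and 0.0596 in limma). Car4 went from -0.47 to -3.67, the largest change between days among the named genes that passed. Of the 33 macrophage genes 28 were lower and 3 higher at day 17, with a median of -1.70, and 19 had a lower difference at day 24. Lyve1, a hyaluronan receptor, is one of the 19 and was higher by 1.42 at day 17. In the liver and visceral endoderm list 17 of 24 were higher at day 17, none lower, and 17 had a lower difference at day 24. Tff1 and Spink4 rose by 3.74 and 2.98 at day 17, and the change between days was 0.03 ± 0.18 and 0.15 ± 0.12. Gkn1 rose at day 17 by 1.53 without KGF and 5.40 with it, so its change between days of 0.78 ± 0.90 is loosely bounded. Pgc, by contrast, read 4.31 or less on every day 17 array, and its difference rose from 0.21 to 2.94. Ctse, a gastric protease, moved from -0.04 to 1.66, and Gkn3 from 0.90 to 3.17. With 1 array left out the count of 456 ranged from 143 to 454, and it was 170 without the day 17 DCI array, 143 without the day 17 combined array, 172 without the day 24 KGF array and 181 without the day 24 combined array.

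**Figure D4:**
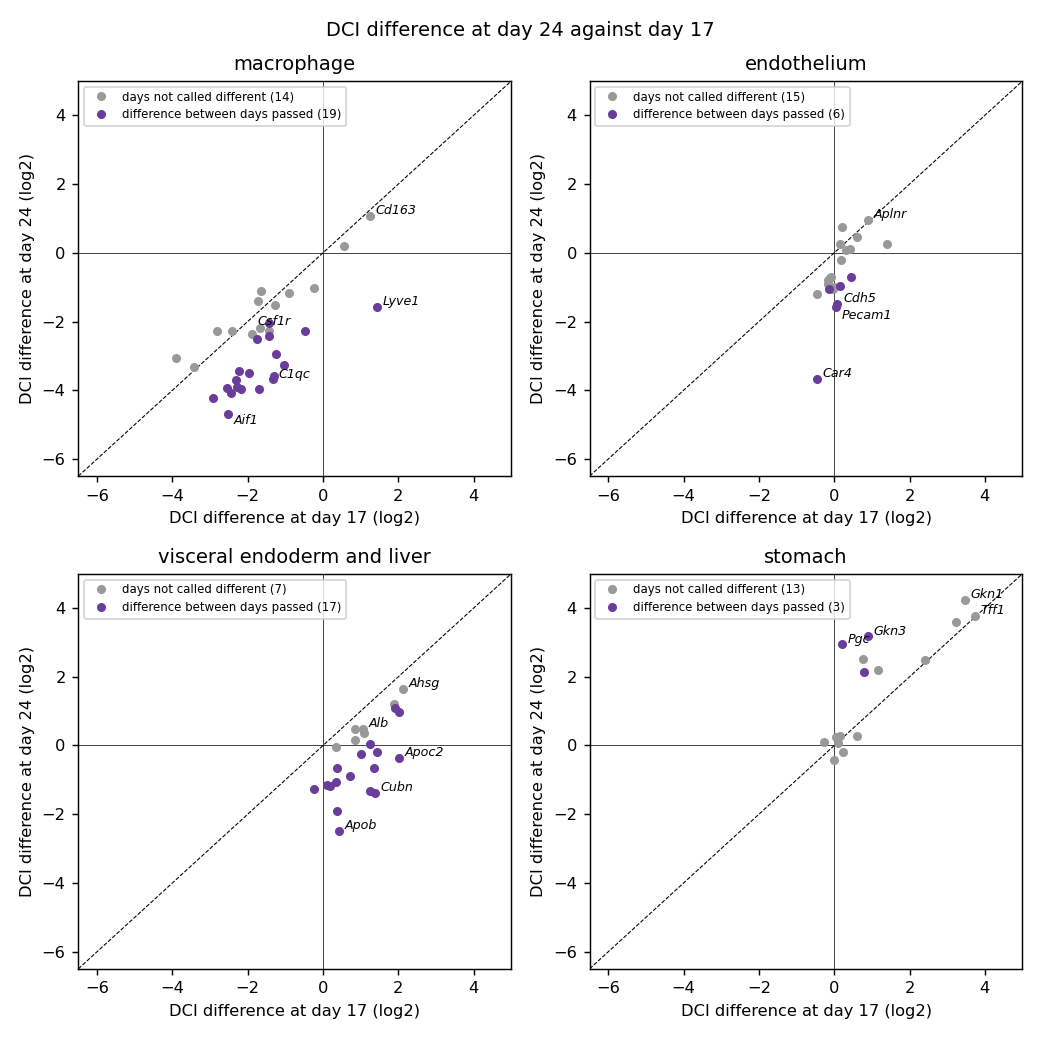
DCI difference at day 17 (x axis) and day 24 (y axis), log2, for the measured members of 4 lists, 1 point per gene, with purple points where the difference between the days passed. Most macrophage (19 of 33) and liver and visceral endoderm genes (17 of 24) are purple and lie below the dashed line of equal differences, as do 6 of 21 endothelial genes, while 3 of 16 stomach genes passed above it.

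**Figure D5:**
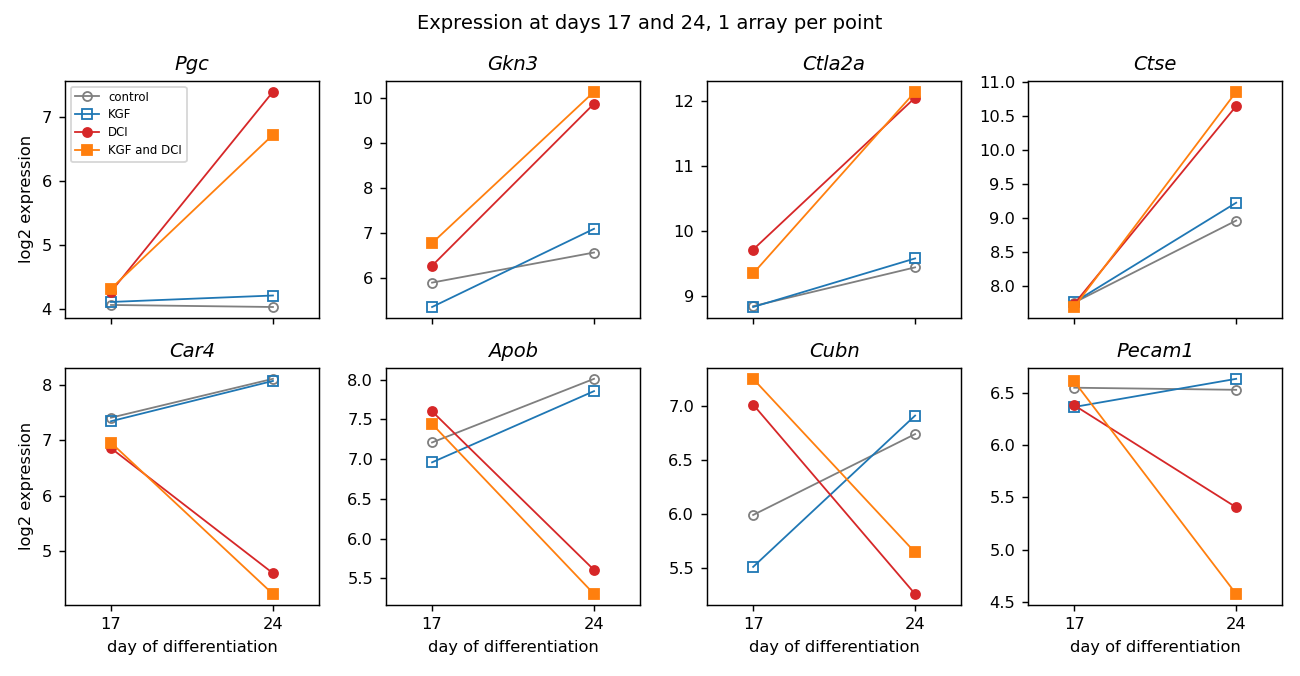
Log2 expression of 8 genes on the day 17 and day 24 arrays, 1 array per point and 1 line per treatment. Pgc, Gkn3, Ctla2a and Ctse part upward with DCI by day 24, and Car4, Apob, Cubn and Pecam1 part downward, with Cubn above the untreated arrays at day 17 and below them at day 24.

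Of the other genes whose difference changed between days, Ctla2a, a cysteine protease inhibitor, read 9.44 and 9.58 without DCI and 12.05 and 12.14 with it at day 24 (2.58 ± 0.11), against 0.69 at day 17. The airway protein gene Bpifb1 moved from -0.29 to 1.30, a change lost without the day 17 combined array (adjusted p = 0.0621 in limma). F13a1, the coagulation factor XIII subunit made by macrophages and platelets, moved from -0.32 to -2.85. Cxcl2 rose on both days but less at day 24, by 3.39 and then 1.08. Among steroid-handling genes Hsd11b1 moved from 2.39 to 1.26. The glucocorticoid list as a whole had a median of 0.49 at day 17 and 0.54 at day 24, with 1 member higher and 4 lower in the test between days.

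In the list of sterol and fatty acid synthesis 10 of 20 genes rose and 0 fell, with a median of 0.26, and 6 rose without the KGF array. Lss, a late enzyme of cholesterol synthesis, rose by 0.64 and Mvd by 0.60, but the rate-limiting synthase Hmgcs1 (0.13 ± 0.06) and fatty acid synthase, Fasn (0.12 ± 0.08), did not pass. Of 18 hypoxia and glycolysis genes 9 rose, such as the hydroxylase gene P4ha2 by 0.73, Hk2 by 0.66 and Vegfa by 0.47. Of 21 amino acid stress genes 11 rose, among them asparagine synthetase, Asns, by 0.53, but 5 without the control array and 4 without the combined array. The 3 that fell were the stress factor Atf3 by 0.43 and the serine synthesis genes Psph and Phgdh by 0.34 and 0.33, of which 0 were left without the KGF array and 1 without any 1 of the 4 DCI arrays of days 17 and 24. Among 17 adipocyte genes 5 rose. Cidea, a lipid droplet protein, read 5.55 and 6.04 without DCI and 7.84 and 8.40 with it (2.33 ± 0.15), Pparg rose by 1.08 and Fabp4 by 0.54, and the fatty acid receptor gene Cd36, also of macrophages, fell by 0.92. Mrap, a melanocortin receptor partner, rose by 2.73 with 1 other probe set at 0.22. Adipoq, the adipocyte hormone, read 6.55 in the control and 2.99, 2.90 and 4.37 on the KGF, DCI and combined arrays, and did not pass.

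Growth factor lists differed in the share of members that passed and in their direction. In the BMP and TGF-beta list 5 of 18 fell and 4 rose. The falls were in the ligand gene Bmp4, at 9.10 and 9.22 without DCI and 8.26 and 8.44 with it, the pseudoreceptor gene Bambi (-0.85 ± 0.08) and the target genes Id1 and Id3 (-0.54 and -0.51). The BMP antagonist Grem1 rose from 5.21 and 5.49 to 6.89 and 7.21 (1.70 ± 0.16). Without the control, the KGF or the DCI array 2 of the 4 rises were left. Of 20 Wnt genes Wnt4 rose by 0.95, the secreted Dkk3 by 0.85, and the ligand gene Wnt5a, of mesenchyme, fell by 0.91. Wif1 and Rnf43 also rose, and 2 of the 4 rises were left without the control, the KGF or the combined array. Rspo2, a mesenchymal Wnt enhancer outside this list, fell by 1.94, with another probe set at 0.14. Ihh, the hedgehog ligand of gut epithelium, rose from 5.96 and 6.14 to 7.02 and 7.05. Of 13 retinoid genes 5 fell, led by the retinoic acid hydroxylase Cyp26a1 (-1.32 ± 0.17) and the synthesis enzyme genes Aldh1a2 (-0.91) and Aldh1a1 (-0.65), and 3 without the KGF or the combined array. Of 12 FGF feedback genes 4 fell, among them Il17rd by 0.81 and Spred1 by 0.66. Of 12 IGF axis genes 4 rose and 5 fell. Among them Igfbp1, a liver product, rose by 1.02, and Igfbp3 read 11.72 and 11.75 without DCI and 10.78 and 10.75 with it. Of 11 imprinted growth genes 6 rose and 0 fell, with Mest by 0.91, Dlk1 by 0.90 and Igf2r by 0.65, and 3 rose without the combined array.

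Mitosis and neuronal genes were called in shares near that of all genes, of which 19.4% passed, 7.99% higher and 11.4% lower. Of 20 mitosis and DNA replication genes 0 rose and 4 fell, all of them helicase subunits of the MCM complex, such as Mcm5 by 0.68 and Mcm3 by 0.57, and 2 without the control array. The mitotic genes Cdk1 (0.13 ± 0.08), Top2a (-0.08 ± 0.07) and Mki67 (-0.34 ± 0.11) did not pass. Of 15 neuronal genes 1 rose and 2 fell. Stmn2, a microtubule regulator, rose from 9.12 and 8.46 to 11.35 and 11.20 (2.49 ± 0.12), while the neurofilament gene Nefl fell by 0.99. Of 13 pluripotency genes 4 rose and 2 fell. Pou5f1 read 3.93 and 3.98 without DCI and 5.39 and 4.79 with it, all below the median, and the 4 rises became 2 without the control array, 1 without the KGF array and 0 without the DCI array. The 2 falls, Lin28a and Sox2, became 0 without the control or the combined array and 1 without the KGF array or either day 17 array lacking DCI. Of 7 housekeeping genes Actb passed, lower by 0.27, and 0 of 7 passed without the control or the DCI array.

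The DCI difference was unequal in the 2 pairs for single genes, which were chosen after their values were seen. Of the 3523 genes 24 differed by at least 1 on the log2 scale between the pairs, with single arrays behind each value and no test. Cblif rose by 4.04 without KGF and 0.99 with it, Mptx1, a lectin-like gut protein, by 3.63 and 1.15, and Scgb1a1 by 2.92 and 1.18. Scgb3a1, a secretoglobin of airways, rose by 0.91 without KGF and 2.38 with it, and Tmprss11e, a membrane protease, by 0.35 and 2.08. The collagenase gene Mmp13 fell by 3.55 and 1.68, from 6.08 in the control and 4.66 with KGF to 2.53 and 2.98. The call over both pairs was lost for Cblif without the control array, for Scgb3a1 without the KGF array and for Tmprss11e without the KGF or the combined array (adjusted p up to 0.146, 0.0778 and 0.358 in limma).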

How the data were processed

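The deposited values are log2 expression levels of 45101 Affymetrix probe sets on 10 arrays, which the authors made by RMA according to the submitters' processing notes. The RMA version, and whether all arrays were normalised in 1 run, were not found in the labels. Quantile normalisation within RMA removes any shift shared by most genes, and dim values are compressed. The values carry no detection calls.

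A platform annotation gave 1 gene symbol for 34945 probe sets, several for 932 and none for 9160, and 64 were controls. Each of the 18193 genes was read from its brightest probe set, by mean over all arrays. limma 3.58.1 (R 4.3.3) was fitted to the 8 arrays of days 17 and 24 with terms for day, KGF and DCI within each day, which leaves 3 residual degrees of freedom. The variance prior followed mean expression, and Benjamini-Hochberg adjustment ran over all genes. The median standard error of a day 24 DCI difference was 0.128. In simulated data 100 genes of each size were changed at day 24, and the rest of the 18193 had no DCI difference. There the test found 70% of log2 changes of 1 and 9% of those of 0.5 at day 24, and 33% and 1% in the test between days. In the data 3523 genes passed, and the Benjamini-Hochberg cutoff depends on the share of changed genes. The rates describe the simulated setting and need not hold for these data.

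The comparison, its 46 gene lists (752 of 800 genes measured) and the named genes were chosen with earlier results of these data known. The naming rule took the 15 largest rises and falls that reached log2 6.67 on a day 24 array. It took the 8 largest each way between days that reached this level on a day 17 or day 24 array. Up to 4 members per list and a set of lung and treatment genes were added. Other list members were named after their values were seen. Alternatives changed the arrays, the KGF term, the variance prior, the filter on low genes, the probe set rule, the normalisation and the threshold. Promoter windows came from RefSeq on GRCm38.p6, and figures from matplotlib 3.10.9.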

Additional observations from a re-analysis of the deposited data

Results flagged for a closer look

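The DCI difference changed between day 17 and day 24 for 456 genes in limma's direct test. Those ranked reached log2 6.67 on a day 17 or day 24 array and changed the same way between days with and without KGF, clone names left out. Among them the 8 largest changes toward a higher difference at day 24 were in Pgc (2.74 on the log2 scale), Gkn3 (2.28), Zg16 (2.28), Fam3b (2.12), Ctla2a (1.89), Ly6m (1.74), Ctse (1.71) and Bpifb1 (1.60). Most of these are secreted products of stomach, intestine or airway. The 8 largest toward a lower difference were in Car4 (-3.20), Apob (-2.92), Cubn (-2.75), Ppbp (-2.63), Apoa4 (-2.58), F13a1 (-2.53), Apoc2 (-2.38) and C1qc (-2.34). Apob, Cubn, Apoa4 and Apoc2 belong to lipoprotein metabolism and yolk sac uptake, and F13a1 and C1qc are expressed by macrophages. The Ppbp change was lost without the day 17 array with both treatments (adjusted p = 0.0731 in limma).

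The polyA spike-in controls are outside the main measurement and read higher with DCI at day 24. Their median difference was 0.46 in the pair without KGF and 0.26 in the pair with KGF, with 24 of 24 probe sets above 0 in each. At day 17 the same medians were -0.0010 and -0.29. The hybridisation controls had medians of -0.072 and 0.48 in the same 2 pairs at day 24 and of 0.49 and 0.078 at day 17.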

How the results depend on the processing

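The count of 3523 genes was 4035 on the 4 day 24 arrays alone, 2978 on all 10 arrays, 2739 without a KGF term and 2537 without a mean trend, and 646 genes also changed at least 2-fold. With 1 array left out it ranged from 2090 to 3714, with fewer arrays behind the estimate where a day 24 array was missing. A second quantile normalisation gave 47.0% of calls higher in place of 41.3%. The count of 456 between days was 294 on all 10 arrays, 767 with the KGF effect within each day, 144 without a KGF term, 138 without a mean trend, 223 with the mean of probe sets, 814 at an adjusted p under 0.10 and 230 with a 2-fold size. With 1 array left out it ranged from 143 to 454. The cause of these moves was not tested.

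Of 183 named genes called at day 24, 140 kept the call without each array and 126 under every alternative, and 0 reversed. Without a KGF term Rab25, Cdh1, Aplnr and Dynlrb2 did not pass (adjusted p of 0.0597, 0.206, 0.0707 and 0.337 in limma), and with the mean of probe sets Il17rd, Spred1 and Mcm5 did not (0.0526, 0.0702 and 0.0632). Of the 85 called named genes with several probe sets, 45 had one with under 0.5 times the change or the opposite sign. Of 92 list medians recomputed, 19 moved by more than the spread of the 2 pairs. Dim genes have only values near the bottom of the scale, and 1 array per condition limits the precision.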

Other observations

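These genes, of which Lyve1 and Pf4 belong to the lists, were picked with their values in view, and the adjusted p-values are from limma. Clps, the cofactor of pancreatic lipase, read 7.02 and 6.15 without DCI and 9.73 and 9.10 with it (2.83 ± 0.24, adjusted p = 2.99e-05). Reg1, a lectin of acinar and gut cells, read 9.96 and 9.65 against 11.88 and 11.72 (1.99 ± 0.37), a call lost with a robust variance prior (adjusted p = 0.154). The digestive proenzyme gene Ctrb1 read 6.26 and 5.55 against 7.34 and 7.95, and its call was lost without the KGF, the DCI or the combined array (adjusted p up to 0.14). Cpa1, another, read 6.51 and 5.62 against 7.18 and 7.33, and its call was lost without the same arrays (adjusted p up to 0.391).

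Orm1, a plasma glycoprotein that glucocorticoids are known to induce, read 6.09 and 6.78 without DCI and 8.62 and 8.59 with it. Serpina3n, a protease inhibitor, read 10.60 and 10.86 against 12.24 and 12.46. Lrg1, a plasma glycoprotein, read 5.54 and 6.04 against 7.61 and 6.96, and A2m rose by 1.43. Ptx3, a soluble pattern receptor, rose by 2.02, with another probe set at 0.56. Adh1, an alcohol and retinol dehydrogenase, read 8.07 and 8.04 against 10.35 on both DCI arrays (2.30 ± 0.08, adjusted p = 1.05e-07). The monooxygenase genes Fmo1 and Fmo2 rose by 1.62 and 1.57 and Gpx2, a gut glutathione peroxidase, by 1.70. The epithelial protease inhibitor gene Slpi read 9.23 and 9.35 against 11.19 and 11.26, and Scara5, a ferritin receptor, 6.78 and 6.81 against 8.97 and 9.10. Falls included Prokr2, a G protein-coupled receptor, from 7.52 and 7.65 to 5.22 and 4.94, the gut peptide gene Nts, from 7.06 on both arrays to 4.90 and 4.96, and Upk3b, a mesothelial marker, from 11.59 and 11.61 to 10.52 and 9.80.

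Of the 29 genes called in opposite directions on the 2 days, Lyve1, a hyaluronan receptor of macrophages and lymphatic endothelium, rose by 1.42 at day 17 and fell by 1.58 at day 24. The drug-metabolising Cyp3a11 moved from 0.96 to -1.20 and Gpihbp1, of capillary endothelium, from 0.42 to -1.03. Pf4 moved from 1.22 to -0.99, with the day 24 call lost without the combined array (adjusted p = 0.0687). Crp, an acute-phase gene, moved from 0.93 to -0.65, with the day 24 call lost without the KGF, the DCI or the combined array (adjusted p up to 0.278).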
